A study of Mus musculus with 58 samples.

Results

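Total RNA was compared between Kdm5a/b double-knockout (dKO) mouse ES cells that had been depleted of DPY30 for 48 h and the same cells at 0 h. The comparison rests on 4 SLAM-seq libraries, 2 at 48 h and 2 at 0 h, of the 58 samples of the series, and takes all reads of each gene whether or not they carried the T>C conversions that mark newly made RNA. All 4 libraries came from E14 cells grown in LIF and serum. The cells express the plant F-box protein OsTIR1, carry DPY30 fused at its end to an auxin-inducible degron (mAID), and lack Kdm5a and Kdm5b. The libraries differ in their hours of auxin. All cultures received 100 µM 4-thiouridine for 60 min before harvest, the 0 h cultures included. The dKO was made by Cas9 in 2 steps, Kdm5a first and then Kdm5b in the Kdm5a knockout, from single-sorted cells. The methods state that 2 dKO clones were taken forward, and the labels do not say which clone a library came from. The other 8 dKO libraries (2, 4, 8 and 24 h, 2 each) entered the same fit, and the DPY30-mAID line with intact Kdm5 genes (3 libraries at 0 h and 3 at 24 h) served for 1 further comparison.

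DPY30 is a core subunit of the SET1/COMPASS complexes, which methylate lysine 4 of histone H3 (H3K4). With RBBP5, ASH2L and WDR5 it forms the module that the catalytic subunits (KMT2A to KMT2D, SETD1A and SETD1B) share. KDM5 enzymes remove the same mark, and H3K4me3 sits at the promoters of most expressed genes. The steady level of an mRNA depends on how fast it is made and how fast it is lost, so total reads follow a change in synthesis with a delay set by the stability of each mRNA. Total reads are given here as CPM, the reads of a gene scaled to the size of its library, which makes them shares of that library: a change common to all transcripts cannot appear in them.

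The guide oligonucleotides listed by the study give the targets of the knockouts that all dKO libraries carry, so they are shown here; the resulting alleles are not analysed here. Capitals mark the 20-base spacer and lower case the cloning overhang, 5′ to 3′.
Kdm5a sgRNA1: caccGTGAAGTCAGGATTACCACC
Kdm5a sgRNA2: caccGTAATGACAAGGTTGTTACA
Kdm5b sgRNA1: caccGACTTTTTTCTTTAAAATAC
Kdm5b sgRNA2: caccGCATCTGCCTGCAAACAAAG

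The 0 h libraries held 6799131 and 7792404 reads in genes and the 48 h libraries 6560292 and 6731309. Multimapped reads made up 33.3% and 34.3% of the reads at 0 h and 32.0% and 32.6% at 48 h. The study calls the replicates biological, but neither it nor the labels say whether they were separate cultures or clones, so p-values measure the spread between these libraries. With 2 libraries against 2, an exact permutation test of a single value cannot go below 0.333.

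The 12 dKO libraries fell into 2 sets of 6 by a few genes, and the sets bear directly on the comparison. Nap1l3, which encodes a nucleosome assembly protein-like factor, stood at 342 to 681 CPM in the first set (both 0 h, both 4 h, 2 h replicate 1 and 8 h replicate 2) and at 3.90 to 5.81 CPM in the second (both 24 h, both 48 h, 2 h replicate 2 and 8 h replicate 1). Cdh13, a cadherin, ran the other way, at 1.01 to 1.85 CPM against 96.5 to 165 CPM. Pik3c2g, a class II PI3-kinase, stood at 31.2 to 50.8 CPM against 0 to 0.142 CPM. Of 11394 tested genes, 8 were apart by more than 1 on the log2(CPM + 1) scale between every library of the first set and every library of the second, a scale on which rare genes can be missed: these 3, Ptpro, Lrrc55, Xkr9 and Sh2d4b (higher in the first set) and Rassf4 (higher in the second). These genes were picked after their values were seen. Multimapped reads were 98.9% of the reads of Nap1l3, 98.0% of Ptpro, 51.0% of Lrrc55 and 41.5% of Cdh13, so other copies may share their counts. Since both 0 h libraries belong to the first set and both 48 h libraries to the second, hours of auxin and library set cannot be told apart in the 48 h against 0 h comparison by itself. The hours are those of the labels, and whether any library was exchanged with another was not tested; the values with the set as a covariate rest on the labels of the 2 h and 8 h libraries. Hours and set can be told apart in part at 2 h and 8 h, where 1 library of each set was made at the same hour. Counts with the set as a covariate are given beside the main counts below, with examples of the genes that then no longer passed. In the DPY30-mAID line Nap1l3 never exceeded 5.25 CPM and Cdh13 never exceeded 8.30 CPM, and Pik3c2g had 0 reads in its 12 libraries. These DPY30-mAID values are CPM of all gene reads, without the TMM scaling of the dKO values.

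**Figure D1:**
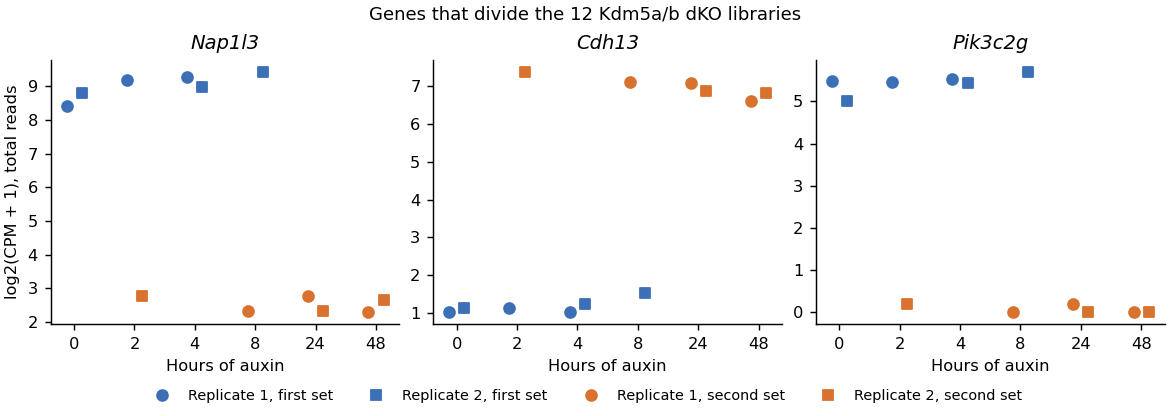
Total reads of Nap1l3, Cdh13 and Pik3c2g in the 12 dKO libraries, as log2(CPM + 1) on the vertical axis against hours of auxin on the horizontal axis, with a circle for replicate 1 and a square for replicate 2. Blue points are the first set and orange points the second; at 2 h and 8 h the 2 replicates lie in different sets, both 0 h libraries are blue and both 48 h libraries orange.

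The genes targeted in these cells came first. Dpy30 itself stood at 75.1 and 63.7 CPM at 0 h and at 63.0 and 68.2 CPM at 48 h, values that overlap, and did not pass the test (log2 fold change -0.08 ± 0.10 SE, adjusted p = 0.667). The degron acts on the protein, so Dpy30 mRNA does not check the depletion. Kdm5a was measured at 26.3 and 28.5 CPM at 0 h and 38.6 and 33.5 CPM at 48 h (0.39 ± 0.15, adjusted p = 0.0882), and Kdm5b at 153 and 113 CPM and then 136 and 112 CPM (-0.10 ± 0.13, adjusted p = 0.697). At 0 h, as CPM of all gene reads, Kdm5a was 26.7 ± 1.01 (SD, n = 2) in the dKO line and 95.1 ± 17.9 (n = 3) in the DPY30-mAID line, and Kdm5b was 130 ± 30.2 and 921 ± 22.0. Dpy30 was also lower in the dKO line, at 67.9 ± 9.25 against 161 ± 10.0. The 2 lines were sequenced with different read lengths, these differences were not tested, and reads from 3′ ends do not show the edited part of either gene.

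At 48 h, 94.9% of the 11394 tested genes lay within 2-fold of their 0 h level, with a median log2 fold change of 0.01. A gene is said here to have changed where edgeR's quasi-likelihood test gave a Benjamini-Hochberg adjusted p below 0.05, and to have changed by over 2-fold where the log2 fold change also passed 1 or -1. By the first rule 904 genes (7.93%) were lower and 751 (6.59%) higher, and by the second 89 (0.781%) were lower and 187 (1.64%) higher. Both classes lay at low levels: the median of the 187 risers went from 2.44 CPM at 0 h to 7.02 CPM at 48 h, and that of the 89 fallers from 8.12 CPM to 3.25 CPM. With the library set as a covariate, 259 genes were lower and 184 higher, and 42 and 62 passed the 2-fold rule. Of the 1655 changed genes, 1649 kept their direction with that covariate and 432 an adjusted p below 0.05; the median ratio of the fold changes was 1.01 while the median standard error rose from 0.163 to 0.237. The count of 89 fell to 49 without 0 h replicate 2 and rose to 147 without 48 h replicate 2.

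**Figure D2:**
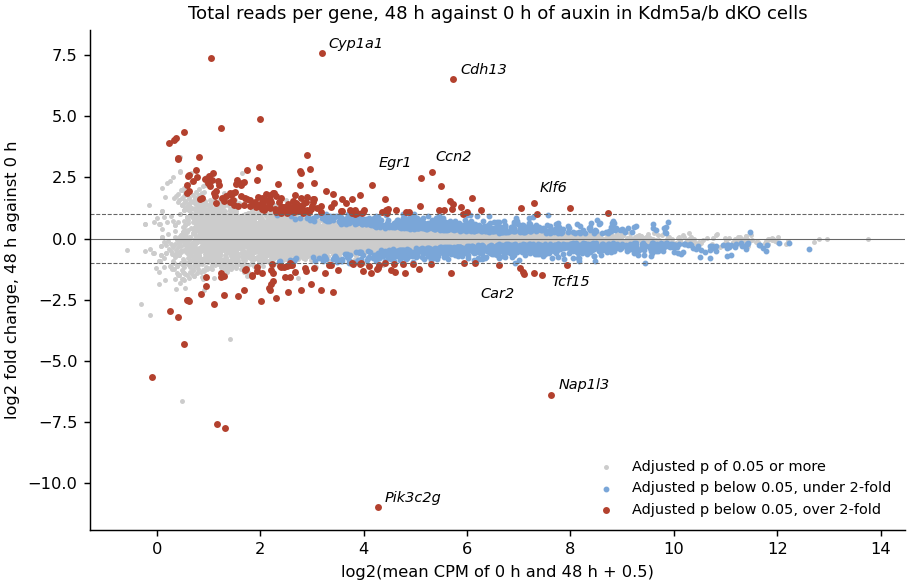
Log2 fold change at 48 h against 0 h (vertical axis) by log2 of the mean CPM of both time points plus 0.5 (horizontal axis) for the 11394 tested genes. Grey points did not pass the test, blue points changed by under 2-fold and red points by over 2-fold (89 lower, 187 higher), the dashed lines mark 2-fold, and most red points lie at the left, among rare transcripts, while Nap1l3, Cdh13 and Pik3c2g are among the genes that divide the library sets; the fitted value of a gene with 0 reads in a group, such as Pik3c2g, depends on the prior count.

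The 10 largest rises and the 10 largest falls were taken among genes of at least 20 CPM in the higher group whose libraries did not overlap. Non-overlap was thus a condition of the choice, and 5703 of the 11394 tested genes (50.1%) met it. Among the risers, Egr1, an immediate early zinc finger factor, rose from 9.50 and 11.3 CPM to 51.2 and 65.0 CPM (2.47 ± 0.15, adjusted p = 1.45e-07). Ccn2, a matricellular protein and a common target of YAP, stood at 4.90 and 15.4 CPM and then at 24.3 and 113 CPM (2.73 ± 0.58, adjusted p = 0.0051). Its groups did not overlap, but its replicates lay far apart, and without 48 h replicate 2 its log2 fold change was 1.24 and no longer passed. Edn1, the endothelin-1 precursor, went from 5.34 and 7.19 CPM to 25.7 and 31.4 CPM (2.18 ± 0.24).

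Fgfbp1, which carries FGFs out of the matrix, rose from 15.7 and 17.3 CPM to 65.6 and 80.0 CPM (2.14 ± 0.15). Jun, an AP-1 subunit, rose from 5.34 and 7.99 CPM to 22.0 and 23.9 CPM (1.77 ± 0.26). Both were chosen for 48 h libraries that did not overlap those at 0 h. Klf6, a zinc finger factor, went from 73.0 and 94.2 CPM to 207 and 256 CPM (1.47 ± 0.12), and Tfap2c, an AP-2 factor of trophoblast and germ cells, from 20.2 and 18.4 CPM to 47.1 and 49.4 CPM (1.32 ± 0.14). The other 3 of the 10 named risers were Hspb8, a small heat shock protein (1.66 ± 0.12), Acot1, an acyl-CoA thioesterase (1.63 ± 0.17), and Plxdc2, a membrane protein (1.63 ± 0.23).

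Among the fallers, Tcf15, a bHLH factor that marks ES cells primed to leave the naive state, fell from 222 and 292 CPM to 84.0 and 98.1 CPM (-1.50 ± 0.12, adjusted p = 1.01e-06). Rhox5, an X-linked homeobox gene, fell from 191 and 211 CPM to 74.4 and 73.3 CPM (-1.45 ± 0.08). Car2, a carbonic anhydrase, fell from 211 and 246 CPM to 81.6 and 90.7 CPM (-1.41 ± 0.09). In each of these 3 genes the higher 48 h library was under the lower 0 h library by more than 2-fold.

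Apobec3, a cytidine deaminase that restricts retroelements, went from 161 and 228 CPM to 66.8 and 84.0 CPM (-1.37 ± 0.14). Emp1, an epithelial membrane protein (-1.41 ± 0.12), the ligand Wnt6 (-1.41 ± 0.19), the membrane protease Mmp14 (-1.39 ± 0.14), the antiproliferative factor Tob1 (-1.36 ± 0.25) and Smim3 (-1.35 ± 0.21) fell as well. The largest fall of the 10 was that of Pik3c2g, with 531 reads at 0 h and 0 at 48 h, at least 172-fold lower against a floor of 3 reads over the group; it is one of the genes that divide the library sets, and with the set as a covariate its adjusted p was 0.658.

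The other 19 of these 20 genes kept an adjusted p below 0.05 with the set as a covariate, from Tob1 (-1.44, adjusted p = 0.037) and Smim3 (-1.15, adjusted p = 0.0396) to Rhox5 (-1.41, adjusted p = 5.28e-05). Over all the named genes the covariate cost more calls: of the 134 that passed at 48 h, 76 still did, and all 134 kept their direction. Of the 264 members of the gene lists described below that passed, 90 still did.

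The counts of changed genes grew most between 8 h and 24 h of auxin. The libraries at 8 h were 1 of each set and both at 24 h belong to the second set, so that step is also one of library set. At 2 h and 4 h edgeR gave 0 changed genes, with 35 lower and 83 higher at 2 h, and 39 and 43 at 4 h, at an unadjusted p below 0.05 and a 2-fold change. At 8 h 50 genes were lower and 35 higher, and at 24 h 686 and 587. With the library set as a covariate these counts were 19 and 18 at 8 h and 171 and 82 at 24 h. The 89 genes that ended over 2-fold lower had median log2 fold changes of -0.02, -0.15, -0.32, -1.01 and -1.39 at 2, 4, 8, 24 and 48 h, and the 187 that ended higher had 0.21, 0.16, 0.21, 1.00 and 1.49. These series share the 0 h libraries and were chosen at 48 h, so they are a description of these genes with no test.

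**Figure D3:**
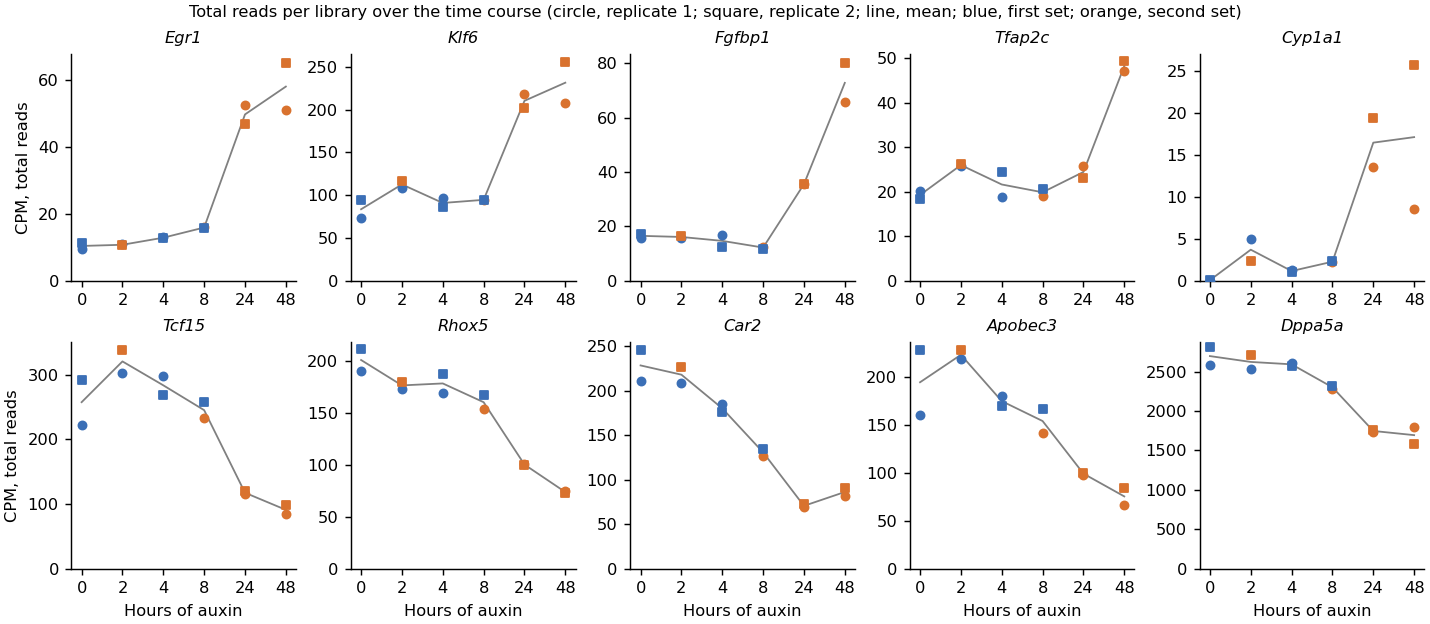
CPM of total reads (vertical axis, from 0) by hours of auxin (horizontal axis) for 10 genes, 5 that rose (top row) and 5 that fell (bottom row), with a circle for replicate 1, a square for replicate 2 and a line through the means. Blue marks the first library set and orange the second; Egr1 and Klf6 reached their 48 h range by 24 h, Fgfbp1 and Tfap2c rose further between 24 h and 48 h, and Car2 was falling by 8 h.

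Between 24 h and 48 h, where all 4 libraries belong to the second set, 27 genes fell and 71 rose. By the 2-fold rule 1 gene fell (0.00878%), Awat2, and 15 rose (0.132%). The named 5 of these risers were Fgfbp1 and 4 genes whose mean was lower at 24 h than at 0 h. S100a6, a calcium-binding protein, stood at 114 and 155 CPM at 0 h, 60.1 and 56.7 CPM at 24 h and 170 and 197 CPM at 48 h, a rise of 1.65 ± 0.14 (adjusted p = 3.14e-05). Htra1, a secreted serine protease, went from 31.3 and 38.8 CPM through 11.8 and 13.6 CPM to 28.3 and 37.7 CPM (1.38 ± 0.17 from 24 h to 48 h).

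Pla2g7, a lipase that breaks down platelet-activating factor, followed the same course, at 56.5 and 53.5, then 34.0 and 27.0, then 62.3 and 65.3 CPM (1.06 ± 0.12). Nrp2, a semaphorin and VEGF co-receptor, went from 22.6 and 25.7 CPM through 15.9 and 18.8 CPM to 34.1 and 41.6 CPM (1.13 ± 0.15, adjusted p = 0.00153), and its adjusted p was 0.052 without 24 h replicate 1. At 48 h Htra1 and Pla2g7 did not differ from 0 h by the test (-0.09 ± 0.15 and 0.21 ± 0.12), although both had changed at 24 h (-1.47 ± 0.17 and -0.85 ± 0.12). The count of 15 was 8 without 24 h replicate 1 and 6 without 24 h replicate 2, and the count of 1 was 99 without 48 h replicate 2.

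The aryl hydrocarbon receptor (AhR) list had most of its members higher. AhR is a ligand-activated bHLH-PAS factor that induces the enzymes that oxidize its ligands, and 5 of the 6 tested members of its list were higher and 0 lower, against 6.59% of all tested genes higher. Cyp1a1, the classic AhR target, had 0 and 1 reads at 0 h and 59 and 178 reads at 48 h, a ratio of 244 (95% interval 43.4 to 9688, counting error only). Its CPM was 0 and 0.133 at 0 h, 13.6 and 19.4 at 24 h, and 8.53 and 25.8 at 48 h. At the hours between, Cyp1a1 had 34 and 17 reads at 2 h, 9 and 6 at 4 h, and 15 and 15 at 8 h.

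Cyp1b1, a second AhR-induced oxidase, had 2 reads in all at 0 h and 50 at 48 h, a ratio of 25.8 (6.77 to 219). Ahrr, the repressor of the receptor, had 4 reads and then 25 (6.44, 2.22 to 25.5), and Ahr itself 8 and 12 reads and then 28 and 32 (1.62 ± 0.46, adjusted p = 0.0272). Nqo1, a quinone reductase, rose by 0.46 ± 0.13, and Tiparp, an AhR-induced repressor, did not pass (-0.20 ± 0.17). The list also rose in DPY30-mAID cells at 24 h, where 5 members were higher and 0 lower in the joint fit of both lines, against 19.2% of all genes higher and 18.6% lower there. There Cyp1a1 went from 0 in each 0 h library to 3.26, 0.998 and 2.96 CPM, and Cyp1b1 from 2.03, 0.372 and 0 CPM to 2.04, 3.49 and 11.8 CPM. Tiparp, which did not pass in dKO cells, rose there from 109, 131 and 113 CPM to 199, 153 and 211 CPM (0.67 ± 0.15, adjusted p = 0.000497). The 2 effects differed by the test for Tiparp (-0.86 ± 0.23, adjusted p = 0.00737) and not for Cyp1a1 (0.95 ± 2.97, adjusted p = 0.877), Cyp1b1 (1.46 ± 1.68) or Nqo1 (-0.37 ± 0.28), with wide errors for both Cyp1 genes. In the 12 libraries of RBBP5-FKBP cells, which are treated with dTAG-13 in place of auxin (0 h included here), Cyp1a1 had 0 reads and Cyp1b1 1 read. The count of 5 was 3 without 0 h replicate 1, 2 without 0 h replicate 2 or without 48 h replicate 2, and 1 with DESeq2 or with the library set as a covariate, where Cyp1a1 kept an adjusted p of 0.00125.

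The core of the AhR response element, GCGTG on either strand, was searched in the 300 bases around each RefSeq start site (GRCm38.p6), and it was present for 4 of the 5 list members that have a promoter entry. It was also present in 51.4% of the windows of tested genes. The list is counted by gene and this share by window, and a gene can have several windows. The sites are shown because Cyp1a1, Cyp1b1 and Ahrr rose while Tiparp, which has a site too, did not. Ahrr holds further matches at positions -107 and -82, which are not shown. Capitals mark the match, on the strand of the gene.
Cyp1a1, chr9:57697547-57697576, plus strand, position -54: tcagataaggagGCGTGgccaacagacaca
Cyp1b1, chr17:79715120-79715149, minus strand, position -76: cgtcccgcccctCACGCcccaccccctaag
Ahrr, chr13:74292341-74292370, minus strand, position -27: gcggggcggctcGCGTGctggggtggggct
Tiparp, chr3:65528265-65528294, plus strand, position -170: ctccgtccggagCACGCgcacgggaggcgg

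Immediate early genes, which respond within minutes to growth factors and stress, also shifted upward: 11 of 16 tested members were higher and 0 lower, with a median log2 fold change of 0.70 against 0.01 over all tested genes. Of all tested genes 6.59% were higher and 7.93% lower. Besides Egr1, Jun and Klf6, the AP-1 subunit Fosl2 rose from 2.67 and 1.86 CPM to 6.36 and 14.5 CPM (2.20 ± 0.39), Fosl1 by 1.45 ± 0.41 and Fos by 1.14 ± 0.27. Ier2 (0.05) and Jund (0.27) did not pass. The count was 8 to 11 when each library was left out and 5 with the library set as a covariate, where Fosl1, Fos and Srf did not pass. The CArG box, which SRF binds, lay in the promoter window of 3 of 15 list members (Egr2, Srf and Zfp36) and in 1.22% of the windows of tested genes. These are unlike units, genes for the list and windows for the share, and a gene can have several windows. Srf passed (0.38) and Zfp36 did not (0.66); Egr2 had too few reads to be tested. Srf holds a second box at position -62, which is not shown.
Srf, chr17:46556225-46556254, minus strand, position -82: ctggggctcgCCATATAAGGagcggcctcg
Zfp36, chr7:28379267-28379296, minus strand, position -58: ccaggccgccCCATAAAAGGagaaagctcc

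Targets of p53 were higher in 11 of 23 tested members and lower in 1, with a median of 0.36, against 6.59% of all tested genes higher and 7.93% lower. Plk2, a stress-induced kinase, rose from 11.9 and 14.3 CPM to 25.0 and 35.2 CPM (1.20 ± 0.18). Trp53inp1, a p53-induced autophagy factor, rose from 139 and 116 CPM to 237 and 264 CPM (0.98 ± 0.10), and Phlda3, an inhibitor of AKT, by 0.95 ± 0.17. Mdm2, the ubiquitin ligase of p53, rose by 0.75 ± 0.06, whereas Cdkn1a, its cell-cycle target, did not pass (0.20 ± 0.12, adjusted p = 0.269), and Rps27l fell by 0.20. The count of 11 was 10 to 12 when each library was left out and 8 with the library set as a covariate, and the count of 1 was 0 without 0 h replicate 2, without 48 h replicate 1 or with the covariate.

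Lysosomal genes rose in 14 of 26 tested members and fell in 1, again against 6.59% and 7.93%, with a median of 0.31, and by less than 2-fold in each. Mcoln1, the lysosomal calcium channel, went from 4.90 and 5.99 CPM to 10.4 and 10.6 CPM (0.94 ± 0.25), Npc1, a cholesterol exporter, rose by 0.69 ± 0.17, and Ctsd, a protease, from 264 and 268 CPM to 412 and 406 CPM (0.62 ± 0.06, adjusted p = 6.64e-06). Cd63, a tetraspanin, fell by 0.54. The count of 14 was 10 to 12 when each library was left out and 4 with the library set as a covariate, where Mcoln1 and Npc1 did not pass, and the count of 1 was 0 without 0 h replicate 2 or with the covariate. The integrated stress response had 6 of 19 members higher and 2 lower, against the same shares of all tested genes. Slc7a11, the cystine transporter, rose by 1.36 ± 0.29, Atf3, a stress factor that the immediate early list also holds, by 0.91 ± 0.21 and Vldlr, a lipoprotein receptor, by 0.76 ± 0.14, while Atf4 (0.07) and Ddit3 (0.23) did not pass. Without TMM 10 were higher and 0 lower. With the covariate 3 were higher and 0 lower, and neither Slc7a11 (adjusted p = 0.154) nor Atf3 (adjusted p = 0.267) passed. The count of 2 lower was 0 without 0 h replicate 1, without 48 h replicate 1 and without 48 h replicate 2, and 1 without 0 h replicate 2.

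The general and the formative pluripotency lists had members that fell and 0 that rose, while the naive list had 3 of each. Against these stand 7.93% of all tested genes lower and 6.59% higher. Pou5f1, the core factor OCT4, stood at a mean of 1251 CPM at 0 h and 1195 CPM at 48 h (-0.07 ± 0.05, adjusted p = 0.444), and Sox2 at 744 and 723 CPM (-0.04 ± 0.05). Of 10 general pluripotency genes 4 were lower and 0 higher, namely the chromatin factor Utf1 (-0.62 ± 0.10), the Nodal co-receptor Tdgf1 (-0.48 ± 0.06), the RNA-binding protein L1td1 (-0.38 ± 0.05) and Dppa2 (-0.24), which alone of the 4 did not pass with the library set as a covariate. Of 15 naive pluripotency genes 3 were lower, with Dppa5a at 2581 and 2814 CPM and then 1801 and 1587 CPM (-0.67 ± 0.06) and Tdh, a threonine dehydrogenase, at -0.50 ± 0.07.

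The naive list also had 3 members that rose: the nuclear receptor Nr5a2 went from 124 and 103 CPM to 180 and 176 CPM (0.65 ± 0.09), Nanog rose by 0.32 ± 0.08 and Tbx3 by 0.21. That count was 1 without 48 h replicate 2 and 1 with the covariate, where Nr5a2 passed and 2 of the 3 lower members still did. Formative and primed genes were lower in 5 of 14 members and higher in 0: Tcf15, the RNA-binding protein Lin28b (-0.68 ± 0.18), the methyltransferase Dnmt3b (108 and 110 CPM, then 75.0 and 65.0 CPM; -0.63 ± 0.09), Foxd3 (-0.47) and Sox4 (-0.35). This count was 3 without 48 h replicate 2 and 3 with the covariate, where Lin28b (adjusted p = 0.154) and Foxd3 did not pass. Nearly all Dppa5a reads (99.9%) were multimapped, so its level is shared with near-identical copies.

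Markers of other lineages were measured next, to be read against 6.59% of all tested genes higher and 7.93% lower. The trophectoderm list had a median log2 fold change of -0.26, while its summed level, which a few abundant members set, was 86.4 and 89.4 CPM at 0 h and 120 and 132 CPM at 48 h. In it 3 of 11 tested members rose, Gata3 (4.60 and 4.26 CPM, then 12.7 and 18.8 CPM; 1.83 ± 0.25), Krt18 (3.86 and 3.33 CPM, then 9.83 and 9.71 CPM; 1.44 ± 0.28) and Tfap2c. The caudal homeobox factor Cdx2 fell, from 26 and 38 reads to 4 and 10 (-2.12 ± 0.44). The 3 rises held when each library was left out and with the library set as a covariate, where the fall of Cdx2 did not pass. Elf5, a defining trophoblast factor, had 0 reads at 0 h and 1 read in each 48 h library.

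Primitive endoderm genes had a summed level of 664 and 755 CPM at 0 h and 766 and 867 CPM at 48 h, most of it Sparc, and a median log2 fold change of -0.10. They were higher in 3 of 16 members (Sparc, Col4a1 and Col4a2, all of the extracellular matrix) and the defining factors Gata4 (-1.05), Gata6 (-0.36) and Sox17 (-0.31) did not pass. This count was 1 without 0 h replicate 1, 0 without 48 h replicate 2 and 0 with the covariate. Of the mesoderm list 1 of 11 members had enough reads to be tested, and of the blood list 1 of 5; T had 3 reads at 0 h and 0 at 48 h, Hbb-bs 0 in all 4 libraries and Ptprc 1. Germline genes were higher in 5 of 15 members (median 0.59, against 6.59% of all tested genes higher): Hormad1, a meiotic axis protein (1.80 ± 0.41), Tex101 (1.21 ± 0.32), the testis ADP/ATP carrier Slc25a31 (8.61 and 10.5 CPM, then 20.4 and 23.2 CPM; 1.18 ± 0.17), the RNA-binding protein Dazl (0.65 ± 0.13) and Stk31. The germline count was 3 without 0 h replicate 2, without 48 h replicate 1 or without 48 h replicate 2, and 1, Slc25a31, with the covariate.

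Members of the splicing, proteasome and DNA replication lists fell, each by less than 2-fold; most members of each did not pass. SR proteins, hnRNPs and SF3 subunits, which splice pre-mRNA, were lower in 18 of 39 members and higher in 0 (median -0.19, against 7.93% of all tested genes lower). Hnrnpa1 stood at 2660 and 2536 CPM and then at 1582 and 1570 CPM (-0.72 ± 0.05), and Hnrnpab at 1154 and 1287 CPM and then at 799 and 869 CPM (-0.55 ± 0.07). Proteasome subunits were lower in 13 of 30 and higher in 0 (median -0.18), led by the deubiquitinase Psmd14, from 353 and 370 CPM to 204 and 209 CPM (-0.81 ± 0.07). DNA replication and G1/S genes were lower in 12 of 37 and higher in 0 (median -0.22), among them cyclin E1, Ccne1, from 256 and 251 CPM to 154 and 137 CPM (-0.80 ± 0.07), the ribonucleotide reductase subunit Rrm2 (-0.72 ± 0.07) and the sliding clamp Pcna (-0.66 ± 0.06). Without TMM scaling, which moves the median of all genes to 0.10, the lower and higher counts were 11 and 2 for splicing, 9 and 1 for the proteasome and 7 and 1 for replication. Of the mitotic genes 3 of 27 were higher, Mki67 (0.44), Top2a (0.25) and Tpx2 (0.25), and 0 lower, against 6.59% and 7.93% of all tested genes; the count of 3 was 0 without 0 h replicate 2 and 9 without TMM.

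The glycolytic enzymes had 4 of 11 members lower and 0 higher, against 7.93% and 6.59% of all tested genes, which is also the background of the counts that follow, with Ldha at 1736 and 1930 CPM and then 990 and 1193 CPM (-0.75 ± 0.08). Translation factors were lower in 11 of 33 and higher in 3, and heat shock proteins and chaperones lower in 7 of 24 and higher in 1, or in 0 without 0 h replicate 2. Hspa5, the chaperone of the endoplasmic reticulum, went from 780 and 777 CPM to 476 and 488 CPM (-0.69 ± 0.05). Nuclear-encoded respiratory chain genes were lower in 18 of 73 and higher in 1 (median -0.07), and mitochondrial ribosomal proteins lower in 12 of 72 and higher in 1 (-0.06). Without TMM scaling these 2 medians turned positive (0.02 and 0.03), with 13 lower and 6 higher respiratory chain genes and 8 lower and 4 higher mitochondrial ribosomal genes, and without 0 h replicate 2 the counts of lower genes were 11 and 5; the single higher gene became 2 respiratory chain genes without 0 h replicate 1 or 48 h replicate 2, and 0 mitochondrial ribosomal genes without 0 h replicate 2 or 48 h replicate 1. Ribosome biogenesis genes were lower in 9 of 69 and higher in 0, and in 5 without 0 h replicate 2. Cytosolic ribosomal proteins were lower in 12 of 75 and higher in 0 (median -0.12), a count that was 30 without 0 h replicate 1 and 6 without 0 h replicate 2. Without TMM 5 were lower and 7 higher, with a median of -0.03, and the lower and higher counts were 7 and 5 for translation factors, 4 and 2 for chaperones and 6 and 3 for ribosome biogenesis. For Rpl7a and Rps7 almost all reads were multimapped, so pseudogenes share them. Multimapped reads also made up more than 10% for Hnrnpa1, Pcna, Ldha, Mki67, Krt18, Hormad1, Pou5f1, Nanog, Dppa2, Tdgf1, L1td1, Tdh, Jund, Rps27l, Cd63, Wdr5, Dpy30, Egln1, Tubb3 and Uhrf1, whose levels are uncertain to that extent. With the library set as a covariate the counts of lower genes were 4 for splicing, 6 for the proteasome, 4 for replication, 3 for glycolysis, 4 for translation factors, 3 for chaperones, 8 for the respiratory chain, 1 for mitochondrial ribosomal proteins, 3 for ribosome biogenesis and 2 for cytosolic ribosomal proteins. Of the higher genes in these lists and the mitotic list, 1 translation factor still passed.

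**Figure D4:**
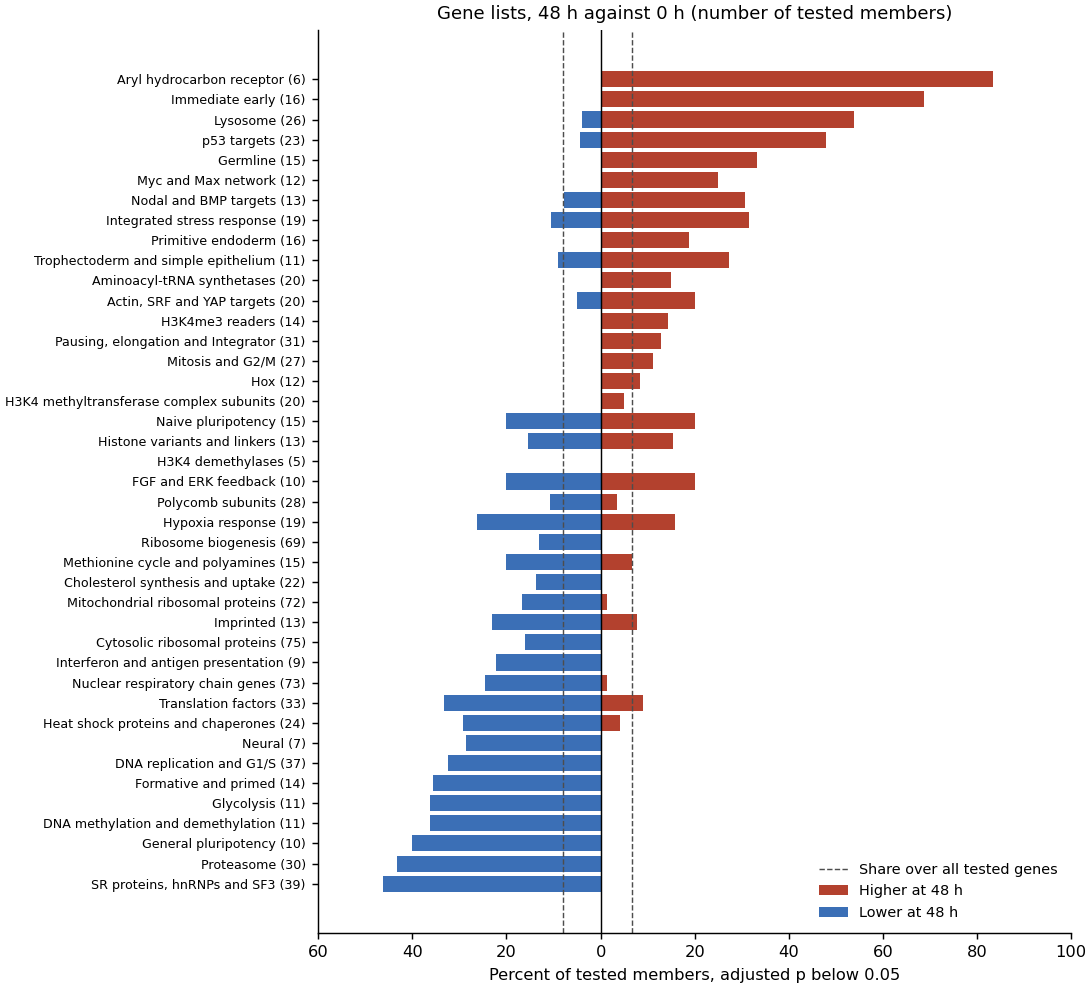
Percent of the tested members of each list (horizontal axis) that were higher (red, to the right) or lower (blue, to the left) at 48 h with an adjusted p below 0.05, for the lists with at least 5 tested members, ordered by the difference; the number after each name is the number of tested members. The dashed lines mark the share over all tested genes, 7.93% lower and 6.59% higher, and the AhR (5 of 6), immediate early (11 of 16) and lysosome (14 of 26) lists extend farthest to the right.

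The genes of the H3K4 machinery itself were counted against the same 7.93% lower and 6.59% higher of all tested genes. Of 20 tested subunits of the H3K4 methyltransferase complexes 0 were lower and 1 was higher, a share near the background: Kdm6a, the H3K27 demethylase bound to the KMT2C and KMT2D complexes, from 62.2 and 53.5 CPM to 79.3 and 77.4 CPM (0.44 ± 0.09), a count of 1 that was 0 without 0 h replicate 2, 2 without 48 h replicate 2, 3 without TMM and 0 with the library set as a covariate (Kdm6a adjusted p = 0.0578). The core subunits Rbbp5 (-0.12), Ash2l (-0.10) and Wdr5 (-0.01) did not pass, nor did Kmt2a (0.33). The list's median was 0.04 in dKO cells at 48 h. After 24 h of auxin in DPY30-mAID cells the same list had a median of -0.49, with 12 members lower and 2 higher, against 18.6% lower and 19.2% higher of all genes there, at another hour and in other libraries. Of the 5 H3K4 demethylases tested, 0 passed in either direction, and of 31 pausing, elongation and Integrator genes 4 were higher and 0 lower, among them the P-TEFb cyclin Ccnt1 (0.39 ± 0.07). That count of 4 was 2 without 0 h replicate 1, 1 without 0 h replicate 2, 2 without 48 h replicate 2, 2 with DESeq2, 7 without TMM and 1 with the covariate, where Ccnt1 did not pass (adjusted p = 0.0841).

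T>C reads, which include the labelled part of the total reads, were lower at 48 h across most genes. They made up 4.69% and 5.27% of the reads at 0 h and 2.04% and 2.37% at 48 h, and each T>C read carried 1.14 conversions in both 0 h libraries and 1.03 in both 48 h libraries. The methods of the study filtered, unless stated otherwise, for reads with more conversions than most of these carry. How many of these reads come from sequencing errors or sequence variants was not tested. T>C reads were scaled to the total reads of each library, so a lower labelling of the whole library and a lower synthesis of each gene cannot be told apart here. Over all 5965 genes that could be fitted for T>C reads, 4311 were lower and 7 higher in them (median -1.29). Of the 779 with lower total reads, 752 were lower in T>C reads (median -1.70), and of the 451 with higher total reads 203 were lower and 7 higher in T>C reads (median -0.68). Under the set covariate 3200 of the 5965 were lower and 7 higher, with 687 lower of the 779, and 142 lower and 6 higher of the 451. The T>C reads are part of the total reads, and all values share the 0 h libraries.

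The labelled share of a gene, used in place of a measure of how fast its mRNA is renewed, had little relation to its change in total reads. Genes were divided by the share of their reads that carried T>C conversions in untreated DPY30-mAID cells, which is high for short-lived mRNAs. From the lowest to the highest quartile of this share the medians of the log2 fold change were -0.03, -0.06, -0.02 and 0.00. The share of genes that fell was 12.5%, 14.9%, 10.5% and 8.60%, and the share that rose was 6.89%, 5.36%, 7.07% and 9.60%. Across 6791 genes, which are not independent replicates, Pearson's r between the share and the log2 fold change was 0.035 and Spearman's rho 0.040. Among the 3496 of them with at least 50 CPM at 0 h these were 0.087 and 0.070. The highest and lowest quartiles differed by 0.026, a value that turned to -0.028 without 48 h replicate 2.

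Promoter CpG content likewise did not separate the medians. Genes with an observed over expected CpG ratio of at least 0.6 around the start site (7266 genes) had a median log2 fold change of 0.00, and those below 0.6 (1929 genes) one of 0.02. The spread was wider in the CpG-poor class, in which 3.68% rose and 1.40% fell by over 2-fold, against 1.13% and 0.468%. CpG-poor genes were also measured at lower levels, with a median of 8.39 CPM at 0 h against 28.6 CPM; the part of this in the wider spread was not tested. A promoter entry was found for 80.7% of the tested genes.

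The effect of 48 h of auxin in dKO cells was set against that of 24 h in DPY30-mAID cells with intact Kdm5 genes, the longest time measured there. In a fit of both lines together 94.7% of 11483 genes lay within 2-fold after 48 h in the dKO line and 75.7% after 24 h in the DPY30-mAID line. The difference between the 2 effects passed the 2-fold rule in 456 genes (3.97%), in which the dKO effect was lower, and in 482 (4.2%), in which it was higher. Line, hours, read length and depth (2048085 to 2806821 reads in the DPY30-mAID libraries) cannot be told apart here. With the library set as a covariate the counts were 242 and 301.

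Among genes that fell in DPY30-mAID cells, Plec, a cytoskeletal linker, stood at 268, 177 and 198 CPM at 0 h and 31.0, 34.4 and 36.8 CPM at 24 h, while in dKO cells it was at 43.0 and 44.8 and then 50.1 and 45.0 CPM (difference 2.76 ± 0.22, adjusted p = 5.24e-11). Its 0 h level already differed between the lines. Dazl went from 19.3, 24.6 and 27.1 CPM to 0, 6.48 and 9.30 CPM in DPY30-mAID cells and from 25.5 and 29.6 CPM to 43.9 and 43.4 CPM in dKO cells (2.86 ± 0.55). The cell-surface mucin Parm1 (2.49 ± 0.51) likewise moved in opposite directions in the 2 lines.

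Furin, a proprotein convertase, fell from 17.3, 7.82 and 15.6 CPM to 2.85, 0.499 and 2.54 CPM in DPY30-mAID cells and stood at 29.0 and 31.4 and then 24.1 and 27.1 CPM in dKO cells (2.46 ± 0.55). The nicotinic receptor subunit Chrna9 fell in DPY30-mAID cells from 14.2, 12.7 and 17.8 CPM to 2.45, 0.998 and 0.423 CPM; in dKO cells it went from 17.8 and 22.3 CPM to 9.79 and 10.2 CPM (2.48 ± 0.60). For these 5 genes the libraries of the 2 time points did not overlap in DPY30-mAID cells. The genes were chosen for a large difference, which contains that fall, and the share over all genes was not counted.

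Of the genes with the opposite sign, Pdpn, a mucin-type membrane protein, rose in DPY30-mAID cells from 41.2, 28.7 and 30.5 CPM to 124, 134 and 131 CPM and stood in dKO cells at 25.7 and 24.4 and then 22.4 and 19.8 CPM (-2.21 ± 0.30, adjusted p = 1.52e-06). The stathmin Stmn3 rose from 9.15, 13.8 and 5.20 CPM to 22.8, 33.9 and 46.9 CPM and in dKO cells went from 22.4 and 26.1 CPM to 16.2 and 11.8 CPM (-2.67 ± 0.47). Chchd6, a subunit of the MICOS complex of mitochondria (-2.18 ± 0.36), and Rnaseh2c, a subunit of ribonuclease H2 (-1.94 ± 0.38), had the same pattern. The rhomboid-like protease Rhbdd1 was at 1.52, 2.23 and 0.743 CPM in DPY30-mAID cells at 0 h and at 8.97, 4.49 and 28.7 CPM at 24 h, and in dKO cells at 15.8 and 15.8 and then 21.2 and 24.2 CPM (-2.71 ± 0.70). Its wide 24 h values carry the difference, which no longer passed without DPY30-mAID 24 h replicate 3 (adjusted p = 0.0585).

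**Figure D5:**
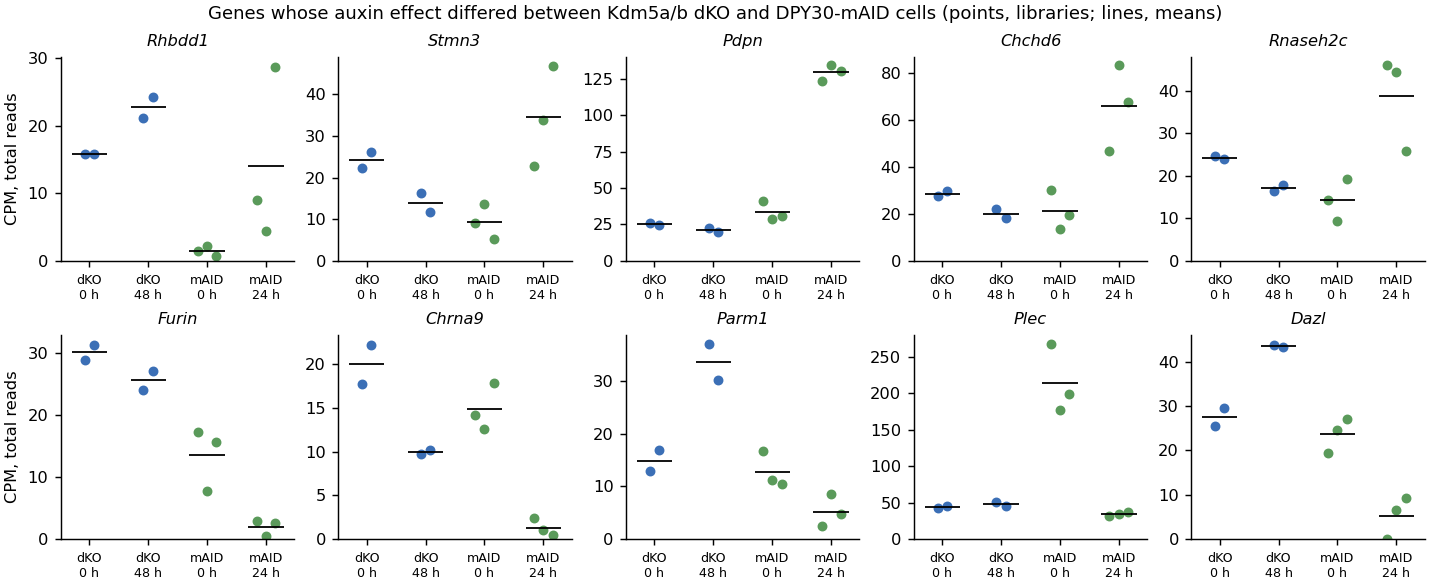
CPM of total reads (vertical axis, from 0) in each library of dKO cells at 0 h and 48 h (blue) and of DPY30-mAID cells at 0 h and 24 h (green), for the 5 genes with the lowest and the 5 with the highest named differences between the 2 effects; lines are group means. Pdpn rose in DPY30-mAID cells and not in dKO cells, while Plec fell from 177 to 268 CPM at 0 h to 31.0 to 36.8 CPM at 24 h in DPY30-mAID cells and stood at 43.0 to 50.1 CPM in dKO cells.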

How the data were processed

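SLAM-seq libraries (3′ QuantSeq with 4-thiouridine labelling) were analysed from the deposited tables. The authors mapped and counted with SlamDunk on mm10, over annotated 3′ UTR intervals, and deposited counts of all reads and of T>C reads per interval. The submitters' processing notes also name HISAT2 2.2.1, Trim Galore, cutadapt, bcl2fastq and featureCounts. ERCC spike-ins were not used here, nor were the 22 Quant-seq libraries.

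Read counts were summed over the 46420 intervals to 20177 genes. Genes averaging 10 reads or more at any time point entered edgeR 4.0.16 (TMM scaling, quasi-likelihood test, R 4.3.3), fitted over all 12 dKO libraries, and over both lines for the difference between them. CPM are TMM-scaled. Adjusted p-values are Benjamini-Hochberg. DESeq2 1.42.0 was an alternative. On simulated data the fit recovered 73% of simulated log2 changes of 1 and 96% of those of 2 for 48 h against 0 h (11165 genes), and 44% and 73% for the difference between the lines (11265 genes); under the 2-fold rule the shares at a log2 change of 1 were 51% and 28%. In these simulations 17 unchanged genes had an adjusted p below 0.05 for 48 h against 0 h, and 11 for the difference between the lines. The simulated data held no difference between library sets. Library depth ran from 5931269 to 7792404 reads in dKO cells, and the intervals of ratios cover counting error only. Replicate numbers were not read as pairs. The deviations of same-numbered libraries from their group means correlated between -0.10 and 0.34, above 0.1 in 4 of 15 pairs of time points; the highest was that of 0 h with 48 h. No 2 replicates were the same library.

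The members and the 45 gene lists were chosen with earlier results of these data known. Named genes were Dpy30, Kdm5a and Kdm5b; the 10 largest changes each way among genes changed by over 2-fold with non-overlapping libraries, at least 20 CPM in the higher group, under 10% multimapped reads and no Gm or Rik name; the 3 largest changes of each list at 5 CPM or more; and the 5 largest each way of the other 2 comparisons. The same limits applied in the other 2 comparisons. For the difference between the lines, non-overlap and 20 CPM were required of the dKO libraries at 48 h and 0 h. Other genes were named after their values were seen. Figures were drawn with matplotlib 3.10.9.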

Additional observations from a re-analysis of the deposited data

Results flagged for a closer look

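In 10 genes the effect of auxin differed between dKO cells at 48 h and DPY30-mAID cells at 24 h by the test of the difference itself, on the log2 scale. The dKO effect was higher for Dazl (2.86), Plec (2.76), Parm1 (2.49), Chrna9 (2.48) and Furin (2.46), and lower for Rhbdd1 (-2.71), Stmn3 (-2.67), Pdpn (-2.21), Chchd6 (-2.18) and Rnaseh2c (-1.94). With the library set as a covariate the adjusted p of Chrna9 was 0.0517 and that of Rhbdd1 0.0531, and the other 8 stayed below 0.05. The lines were sampled at different hours and sequenced at different depths and read lengths, and the part of these in the differences was not tested.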

How the results depend on the processing

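For 48 h against 0 h, the 89 lower and 187 higher genes became 57 and 102 with DESeq2, 52 and 104 with a mean of at least 50 reads, 54 and 91 with the 4 compared libraries alone, 152 and 311 with unadjusted p, 904 and 751 with no cut on fold, and 42 and 62 with the library set as a covariate, chosen after the data were seen. That covariate also took the 686 lower and 587 higher genes at 24 h against 0 h, with no cut on fold, to 171 and 82. Leaving out each library gave 49 to 147 lower and 125 to 200 higher genes. Without TMM the split was 64 lower and 246 higher, and the median of all genes shifted from 0.01 to 0.10. The replicate block gave 95 and 199 genes; of 15 pairs of time points 4 had same-numbered libraries that correlated above 0.1, so the numbers were not read as pairs.

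For 48 h against 24 h, 1 lower gene became 0 with DESeq2, the interval with most reads, at least 50 reads, the 4 libraries alone and the covariate, 9 with no low-count filter, 3 with the replicate block and 51 with unadjusted p; the 15 higher became 7 with DESeq2, 32 with no filter, 9 with the 4 libraries alone and 93 with unadjusted p. Leaving out each library gave 0 to 99 lower and 6 to 18 higher. For the difference between the lines, 456 lower and 482 higher became 751 and 765 with unadjusted p and 242 and 301 with the covariate; leaving out each library gave 351 to 509 and 365 to 631.

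The difference between the highest and lowest quartiles of labelled share, 0.026, ranged from -0.028 (without 48 h replicate 2) to 0.078 when each library was left out. The difference by promoter CpG, -0.015, turned to 0.0074 with at least 50 reads per gene. Among the values of named genes under these alternatives 1950 kept their side of the threshold, 258 lost it, 1 gained it and 0 reversed; under the replicate block 157 kept it and 0 lost it. The cause of these changes was not tested. Depth limits rare transcripts most: 87 of the 276 genes changed by over 2-fold had under 5 CPM in their higher group.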

Other observations

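Several further gene lists were measured. Of all tested genes 7.93% were lower and 6.59% higher. Genes of DNA methylation and demethylation were lower in 4 of 11 tested members and higher in 0, among them Dnmt3b (-0.63), the maintenance cofactor Uhrf1 (-0.48) and Dnmt1 (-0.40), and in 2 without 0 h replicate 2 or with the library set as a covariate, where Dnmt1 did not pass. Of the hypoxia response, 5 of 19 members were lower and 3 higher, with the oxygen sensor Egln1 at -0.70, Ndrg1 at 1.16 and the mTORC1 inhibitor Ddit4 at 0.74 (358 and 321 CPM, then 564 and 568 CPM). The count of 5 was 3 without 0 h replicate 2 or without 48 h replicate 2 and 2 with the covariate, and the count of 3 was 2 with it and 5 without TMM. Of the Nodal and BMP targets 4 of 13 rose, including Id2 (0.64) and Nodal (0.55), and 1 fell, Tdgf1; the count of 1 was 2 without 48 h replicate 1 or 48 h replicate 2, and with the covariate Nodal did not pass and the count of 4 was 1.

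In the FGF and ERK feedback list the phosphatases Dusp4 (0.59) and Dusp6 (0.58) rose while Spry1 (-1.21) and Etv4 (-0.45) fell. Of 10 members tested 2 were higher and 2 lower, and the 2 higher became 0 without 0 h replicate 1 and without 48 h replicate 2, while the 2 lower became 1 without 0 h replicate 2 and without 48 h replicate 2. With the covariate 0 were higher and 1 was lower, Spry1. Among imprinted genes 3 of 13 were lower, with Peg10 from 284 and 315 CPM to 163 and 175 CPM (-0.82 ± 0.07), and 1 was higher, Igf2r (0.83 ± 0.21), which no longer passed without 0 h replicate 1, without 48 h replicate 2 or with the covariate, where 1 imprinted gene, Peg10, was lower. Of 12 tested Hox genes 1 rose, Hoxc13, from 5.94 and 4.93 CPM to 14.3 and 15.8 CPM (1.47 ± 0.22), and it also passed with the library set as a covariate.

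Against the same shares of all tested genes, the Polycomb list had 3 of 28 members lower and 1 higher, the H3K4me3 readers 0 and 2 of 14, the aminoacyl-tRNA synthetases 0 and 3 of 20, cholesterol synthesis 3 and 0 of 22, the methionine cycle 3 and 1 of 15, the Myc network 0 and 3 of 12 (3 lower without 0 h replicate 1, without 48 h replicate 2 or with the replicate block), histone variants 2 and 2 of 13, actin, SRF and YAP targets 1 and 4 of 20, and interferon genes 2 and 0 of 9. The neural list had 2 of 7 lower, Stmn2 (-1.01) and Tubb3 (-0.55), the fibroblast list 1 of 4 lower, Thy1 (-0.79), and the 2-cell-like list 1 of 4 lower, Tmem92, with 26 reads at 0 h and 1 at 48 h. Without 0 h replicate 1, 0 h replicate 2, 48 h replicate 1 and 48 h replicate 2 in turn, the higher counts were 1, 0, 2 and 0 for Polycomb, 1, 0, 0 and 0 for the methionine cycle, 1, 0, 1 and 0 for the H3K4me3 readers, 1, 2, 2 and 1 for the Myc network, 1, 2, 2 and 1 for histone variants and 3, 4, 5 and 1 for actin, SRF and YAP targets. In the same order the lower counts were 1, 1, 2 and 3 for actin, SRF and YAP targets, 0, 1, 1 and 0 for interferon genes, 1, 1, 2 and 1 for the neural list and 1, 0, 1 and 0 for the fibroblast list. Without TMM the higher counts were 9 for the synthetases, 7 for actin, SRF and YAP targets, 2 for Polycomb and 2 for the methionine cycle. With DESeq2 the H3K4me3 readers had 0 higher and the interferon and 2-cell-like lists 0 lower, and with the replicate block cholesterol synthesis had 5 lower. With the library set as a covariate the counts of lower genes were 1 for Polycomb, 1 for cholesterol synthesis, 2 for the methionine cycle, 1 for histone variants, 1 for actin, SRF and YAP targets and 0 for the interferon, neural, fibroblast and 2-cell-like lists, and those of higher genes were 1 for the synthetases, 2 for actin, SRF and YAP targets and 0 for the Polycomb, H3K4me3 reader, methionine cycle, Myc and histone variant lists.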
